A study of Mus musculus with 31 samples.

Results

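The outer part of the olfactory nerve layer (outer ONL), the sheet of olfactory axons and glia that wraps the olfactory bulb, was compared with the olfactory nerve of the nasal lamina propria at E16.5, a late stage of embryonic development. The comparison took the 4 libraries labelled E16.5 outer ONL and the 4 labelled E16.5 olfactory nerve, 8 of the 31 libraries of the series, and every gene that passed an expression filter, 16239 of the 29419 genes with at least 1 count in these 8 libraries. Both groups were cut by laser from cryosections of mouse embryos that carry the Sox10:H2BVenus transgene, in which regulatory DNA of Sox10 drives a nuclear fluorescent protein, and the pieces were chosen by that fluorescence and by position. Outer ONL pieces came from the side furthest from the bulb, olfactory nerve pieces from the mucosa, and tissue from several sections was pooled into each library. The study reports that its inner and outer cuts did not part the glia of the inner layer from those of the outer layer. Each group was 4 pieces from 4 embryos, and the study cut its E16.5 regions from the same cryosections, so the groups share embryos, though which libraries belong to 1 embryo is not given in the sources used here. No treatment separates the groups. The pieces therefore hold glia, axons and whatever lay beside them, and in bulk RNA fewer cells of a type and less RNA per cell cannot be told apart.

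Olfactory receptor neurons sit in the epithelium of the nasal cavity and send unmyelinated axons through the lamina propria and the cribriform plate to the bulb. Olfactory ensheathing cells (OECs), which are glia of neural crest origin, wrap bundles of these axons along the whole path, and the cells at the bulb differ in gene expression from those in the mucosa. The tissue around the path also differs. In the nose it is epithelium, glands, connective tissue, and developing cartilage and bone, and at the bulb it is meninges, brain vessels and brain.

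The 8 libraries held 14808477 to 16628064 counts each, on 20428 to 23652 genes. Levels are CPM, counts scaled to library size by TMM, in replicate order 1 to 4, and 3 counts, below which a value was not told apart from 0, were 0.172 to 0.228 CPM. This floor covers counting error only. A fold given as at least is the other group's mean over the highest CPM of 3 counts in the group at the floor. It leaves out the spread among libraries, so single libraries can lie below it. A gene at the floor in every library of 1 group could pass the expression filter only through the other group, so its direction was set by the filter. Positive log2 fold changes mean a higher level in the outer ONL and are given ± SE. Adjusted p values are from edgeR's quasi-likelihood fit, in which libraries were not paired, unless another tool or setting is named. Those under 0.05 count as called. The fit of all 31 libraries also takes its spread from libraries of E11.5 and E13.5. An earlier look at these data found that some of their labels do not match the study's group means. Why a call was lost in that fit was not tested. The first principal component held 62.9% of the variance and put the outer ONL libraries at 55.6 to 100.8 and the olfactory nerve libraries at -79.6 to -49.0. Olfactory nerve replicate 2 lay nearest to the outer ONL at -49.0, and outer ONL replicate 1 furthest from the nerve at 100.8, so values without either library are given wherever they move a result. Replicate 3 was the single library without counts of the Y-linked gene Ddx3y in either group (78.6, 54.6, 0 and 67.7 CPM in the outer ONL and 84.8, 71.5, 0 and 73.9 CPM in the olfactory nerve), and the single one with the X-inactivation transcript Xist above 1 CPM, at 154.0 CPM in the outer ONL and 170.7 CPM in the olfactory nerve (scaled over the 15 libraries at E16.5). Ddx3y did not pass the test (-0.20 ± 1.17, adjusted p = 0.928).

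Of the 16239 genes tested, 3923 were called (24.2%), 1770 of them higher (10.9%) and 2153 lower (13.3%) in the outer ONL. The lower genes differed by more. Their median absolute log2 fold change was 1.66, against 1.04 for the higher genes, and 818 of them lay at 2 or beyond, against 399. In 2048 genes all 4 outer ONL libraries lay above all 4 olfactory nerve libraries (12.6% of genes tested), and in 2278 all 4 lay below (14.0%), together 26.6%. Of the called genes, 1587 higher and 1903 lower had no overlap between the groups, and 1141 and 1487 were called in every fit that left out 1 of the 8 libraries. Over all genes tested the median was 0.0158 on the log2 scale, and the lists are read against that centre. Under scaling by total count alone that median was -0.104, and with the replicate number as a block the counts were 2477 higher and 2626 lower. Of the 43 gene lists described here, 4 had a smaller share called than all genes tested (cytosolic ribosomal proteins, red blood cells, oxidative phosphorylation and the Zfp genes). The lists of mature olfactory receptor neurons, epithelial cells, keratins, solute carriers and chemokines each held 1 tested gene at the floor in the outer ONL. The forkhead, Sox, T-box, Zic and nuclear factor I list held 1 there and 1 in the olfactory nerve. The basic helix-loop-helix list held 1 at the floor in the olfactory nerve.

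**Figure D1:**
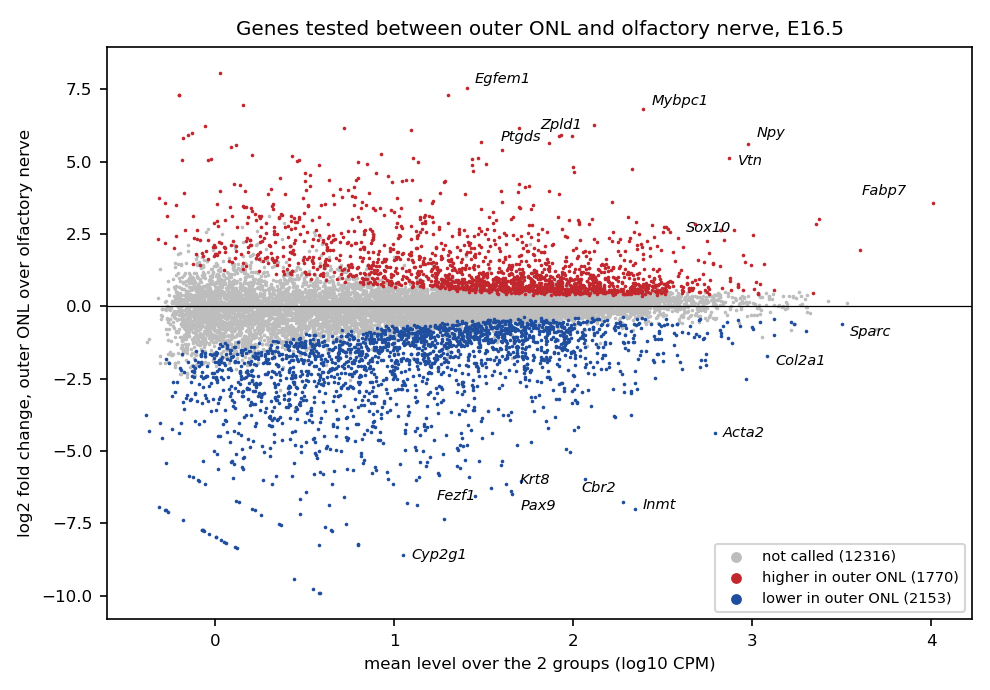
Each point is 1 of the 16239 genes tested. The horizontal axis gives the mean level over the 2 groups (log10 CPM) and the vertical axis the log2 fold change, outer ONL over olfactory nerve. Red points are the 1770 genes called higher and blue points the 2153 called lower in the outer ONL. The blue points reach further from 0 than the red ones at low and middle levels, and Fabp7, Npy and Vtn stand out among abundant red points.

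Glia. Sox10, the transcription factor that marks neural crest glia (ENSMUSG00000033006, chromosome 15, 79154908 to 79165240, minus strand, GRCm38), was present in every library and higher in the outer ONL, at 619, 676, 558 and 709.7 CPM in the outer ONL and 97.3, 175, 123.3 and 108 CPM in the olfactory nerve (2.35 ± 0.19, adjusted p = 9.9e-06). The lowest outer ONL library stood well above the highest olfactory nerve library. Of 19 tested genes of ensheathing and Schwann-lineage glia, 10 were called higher and 3 lower, with a median log2 fold change of 0.78. Fabp7, the brain-type fatty acid-binding protein of OECs, measured 25780, 16587, 13699 and 19036 CPM in the outer ONL and 1496, 2666, 1121 and 1098 CPM in the olfactory nerve (3.56 ± 0.32, adjusted p = 1.7e-05). Metrn, a secreted glial factor, reached 6.85, 6.99, 5.13 and 6.39 CPM against 0.803, 1.08, 1.12 and 1.04 CPM (2.64 ± 0.31, adjusted p = 9.9e-05). Neither gene overlapped between the groups. The neuregulin receptor Erbb3 (1.33 ± 0.18, adjusted p = 3.0e-04) and Foxd3, a forkhead factor of early crest and glia (1.38 ± 0.28, adjusted p = 0.00386), differed by less, and S100b (0.19 ± 0.21, adjusted p = 0.578) and the neurotrophin receptor Ngfr (0.29 ± 0.27, adjusted p = 0.486) did not pass the test. These last 4 genes were chosen after their values were seen, and in the fit of all 31 libraries Foxd3 (adjusted p = 0.0856) was not called.

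The 3 lower members were Gfap, Sox2 and Gfra3. Gfap, the intermediate filament of astroglia and mature glia, was at 1.98, 1.26, 2.496 and 2.43 CPM in the outer ONL and at 25.7, 10.8, 18.1 and 10.5 CPM in the olfactory nerve (-2.99 ± 0.36, adjusted p = 1.2e-04). Sox2, a factor of neural and epithelial stem cells, measured 0, 1.45, 0.208 and 0.0608 CPM against 5.25, 3.13, 3.35 and 7.38 CPM (-3.42 ± 0.84, adjusted p = 0.0108), or -5.61 without outer ONL replicate 2. Gfra3, the artemin receptor subunit, measured 2.82, 34.7, 44.1 and 17.6 CPM against 83.6, 87.8, 97.4 and 75.5 CPM (-1.79 ± 0.54, adjusted p = 0.0293) and lost its call without any 1 of outer ONL replicate 4 and olfactory nerve replicates 1, 3 and 4 (adjusted p = 0.052 to 0.0843). In the fit of all 31 libraries Gfra3 (adjusted p = 0.0689) was not called either.

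Neuropeptide Y, the product of Npy (ENSMUSG00000029819, chromosome 6, 49822710 to 49829507, plus strand), is a known product of ensheathing cells of the nerve layer. Its level was 2892, 1849.9, 1304 and 1391 CPM in the outer ONL and 57.9, 25.6, 32.6 and 35.2 CPM in the olfactory nerve (5.62 ± 0.35, adjusted p = 3.0e-06), and no olfactory nerve library came near the lowest outer ONL value. Ptn, the secreted growth factor pleiotrophin, measured 8604, 5642, 5649 and 5353 CPM against 1421, 2503, 1293 and 1350.5 CPM (1.94 ± 0.25, adjusted p = 1.6e-04), with olfactory nerve replicate 2 the highest of its group. By in situ hybridization the study saw Ptn in OECs and also strongly in mesenchyme beside the nerve layer and the nerve bundles. Its level is therefore not of glia alone. Selenop, a selenium carrier protein, measured 5968, 3266, 3439.9 and 3176 CPM against 623, 652, 514 and 413 CPM (2.85 ± 0.24, adjusted p = 1.3e-05). Outer ONL replicate 1 was the highest library for Npy, Ptn and Selenop, and the groups did not overlap for any of the 3.

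Among genes with at least 20 CPM and no overlap, the largest differences upward were in genes of varied function. Egfem1, an EGF-like and EMI domain protein (ENSMUSG00000063600, chromosome 3, 29082023 to 29691209, plus strand), was at 67.96, 37.5, 54.2 and 42.1 CPM in the outer ONL and at 0, 0.723, 0.263 and 0.0577 CPM in the olfactory nerve (7.55 ± 0.55, adjusted p = 5.3e-06). Rnase12, of the ribonuclease A family, measured 45.1, 52.8, 23.8 and 37.8 CPM against 0, 0.663, 0 and 0.288 CPM (7.31 ± 0.62, adjusted p = 1.2e-05). Both were below 1 CPM in every olfactory nerve library. Mybpc1, which encodes a myosin-binding protein best known from slow muscle, measured 627, 402, 391 and 519.8 CPM against 2.22, 5.72, 2.104 and 7.03 CPM (6.82 ± 0.41, adjusted p = 2.9e-06), and Zpld1, a zona pellucida-like domain protein, 292, 237, 217 and 287 CPM against 3.58, 2.47, 4.01 and 3.46 CPM (6.25 ± 0.21, adjusted p = 2.2e-08). For Zpld1 the 4 olfactory nerve libraries lay close together. Chodl, a C-type lectin (5.89 ± 0.41), Pdzrn4, a PDZ and RING finger protein (5.69 ± 0.36), Plppr4, a phospholipid phosphatase-related protein of neurons (5.65 ± 0.34), and Plcd4, a phospholipase C (6.08 ± 0.45), were called as well. Without olfactory nerve replicate 2, which was the highest of its group for Egfem1, Rnase12 and Plcd4, the log2 fold changes were Egfem1 8.83, Rnase12 8.503 and Plcd4 6.703.

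**Figure D2:**
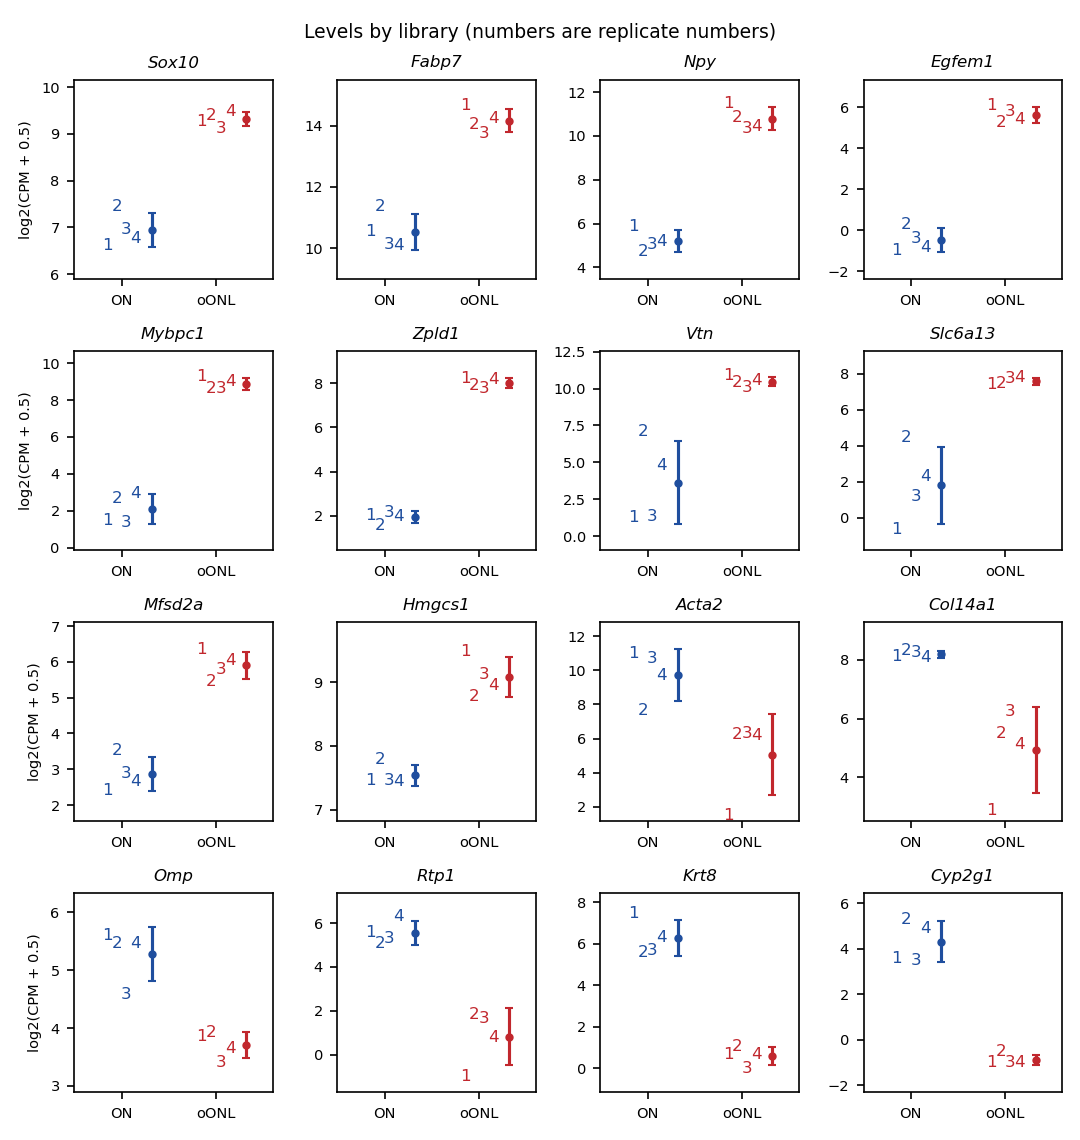
Levels of 16 genes by library, as log2(CPM + 0.5), in olfactory nerve (ON, blue) and outer ONL (oONL, red). Digits are the replicate numbers of the libraries, and the point with bars to the right of each group is its mean ± SD over 4 libraries. For Sox10, Npy and Zpld1 the groups are far apart and narrow, whereas Vtn and Slc6a13 have a wide olfactory nerve group with replicate 2 on top, and outer ONL replicate 1 lies lowest for Acta2 and Col14a1.

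Sox10 itself was higher in the outer ONL, so levels were also compared relative to Sox10 (limma on log2(CPM + 0.5) with the Sox10 value subtracted), which asks which genes differed by more than that glial gene. Of 16238 genes, 78 were higher relative to Sox10 (0.48%), all of them among the 1770, and 15780 were lower (97.2%). Because Sox10 was higher, subtracting it puts a gene with equal levels below 0. The share lower and the overlap with the 1770 therefore follow largely from the subtraction. The 8 with the largest differences at 20 CPM or more were Vtn, Mybpc1, Slc13a3, Egfem1, Zpld1, Ptgds, Slc38a5 and Rnase12. Vtn, the adhesion protein vitronectin, lay 4.47 ± 0.71 above its olfactory nerve level on this log2 scale (adjusted p = 2.8e-06), Mybpc1 4.43 ± 0.32 (adjusted p = 1.6e-10) and Zpld1 3.69 ± 0.30 (adjusted p = 7.9e-10). For the others the relative difference was 3.87 ± 0.40 for Slc13a3, 3.75 ± 0.35 for Egfem1, 3.63 ± 0.42 for Ptgds, 3.48 ± 0.38 for Slc38a5 and 3.44 ± 0.35 for Rnase12. Within the glial list, 2 of the 10 higher members also passed relative to Sox10, Fabp7 among them, and 7 of the 11 higher meningeal genes did. Without olfactory nerve replicate 2 the plain log2 fold changes were Vtn 7.11, Slc13a3 7.57, Egfem1 8.83, Ptgds 6.65, Slc38a5 6.97 and Rnase12 8.503, and with the replicate block Vtn was at 6.75. These 8 kept their call and direction relative to Sox10 in each of 112 values under alternatives, though they were picked as the largest on this same measure.

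Transporters and metabolism. Of 19 tested genes for handling glutamate, GABA and other transmitters, 8 were called higher and 0 lower in the outer ONL, with a median of 0.84. DESeq2, the block, total count scaling and the fit without outer ONL replicate 2 each called 1 lower. Slc6a13, which encodes the GABA transporter GAT2 and is also a meningeal gene, was at 167, 173, 213 and 221 CPM in the outer ONL and at 0.123, 21.3, 1.71 and 4.44 CPM in the olfactory nerve (4.804 ± 0.85, adjusted p = 0.00154), and its level in olfactory nerve replicate 2 was several times that of the other 3. The glutamate transporter gene Slc1a3 (GLAST) measured 372, 287, 253 and 304 CPM against 10.1, 54.9, 15.3 and 20.5 CPM (3.59 ± 0.44, adjusted p = 1.3e-04), again with olfactory nerve replicate 2 highest. Glutamine synthetase, Glul, measured 709, 519, 409 and 595 CPM against 90.9, 108, 69.9 and 63.1 CPM (2.75 ± 0.22, adjusted p = 8.4e-06), and the cystine-glutamate exchanger Slc7a11 63.5, 115, 115 and 118 CPM against 8.77, 20.6, 9.14 and 19.7 CPM (2.82 ± 0.32, adjusted p = 7.7e-05). Glul and Slc7a11 were chosen after their values were seen. Slc38a3, a glutamine transporter, measured 125, 81.1, 127 and 88.1 CPM against 10.99, 13.4, 9.93 and 6.400 CPM (3.37 ± 0.25, adjusted p = 5.3e-06). Leaving out olfactory nerve replicate 2 gave log2 fold changes of Slc6a13 6.51 and Slc1a3 4.31, and with the block Slc6a13 was at 5.63.

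Over the whole solute carrier family, 55 of 271 tested members were called higher and 42 lower, with a median of 0.05. The shares, 20.3% higher and 15.5% lower, stand against 10.9% and 13.3% of all genes tested. Slc38a5, a glutamine and asparagine transporter, measured 161, 63.2, 95.96 and 73.3 CPM against 0.370, 3.19, 0.658 and 1.27 CPM (6.14 ± 0.54, adjusted p = 1.4e-05), and Slc13a3, a dicarboxylate transporter, 207, 118, 169 and 183 CPM against 0.926, 8.62, 0.658 and 1.04 CPM (5.900 ± 0.69, adjusted p = 9.5e-05). In the other direction, Slc16a11, of the monocarboxylate transporter family, measured 0.152, 0.315, 0 and 0.0608 CPM against 5.87, 7.35, 6.71 and 11.4 CPM (-5.797 ± 0.60, adjusted p = 4.0e-05), and the organic anion transporter gene Slco4c1 0, 0.441, 0 and 0.365 CPM against 9.32, 8.13, 9.799 and 15.8 CPM (-5.61 ± 0.67, adjusted p = 1.0e-04). On leaving out olfactory nerve replicate 2 gave log2 fold changes of Slc38a5 6.97 and Slc13a3 7.57, and without outer ONL replicate 2 they were Slc16a11 -6.697 and Slco4c1 -6.27.

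Genes for gap junctions and potassium buffering split. Of 17 tested, 8 were higher and 4 lower, with a median of 0.80. Gjb2, which encodes connexin 26 and is expressed in meninges, was at 56.4, 40.6, 78.6 and 48.5 CPM in the outer ONL and at 1.85, 12.4, 2.17 and 5.19 CPM in the olfactory nerve (3.37 ± 0.51, adjusted p = 5.7e-04), or 4.18 without olfactory nerve replicate 2. Gjc3, a connexin of myelinating glia, measured 24.6, 20.3, 22.5 and 24.7 CPM against 7.16, 12.7, 10.3 and 7.32 CPM (1.299 ± 0.22, adjusted p = 0.00124). Kcnj10, the inward rectifier Kir4.1 of potassium-buffering glia, went the other way, at 1.07, 2.52, 2.63 and 3.65 CPM against 9.199, 20.2, 15.2 and 9.17 CPM (-2.43 ± 0.39, adjusted p = 8.5e-04), and so did the potassium channel gene Kcnk10 (-3.098 ± 0.81, adjusted p = 0.0147, or -4.02 without outer ONL replicate 4). In the fit of all 31 libraries 3 of the 17 were called higher.

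Over all 65 tested potassium channel genes and subunits, 5 were higher and 21 lower, with a median of -0.58. Kcnn4, the intermediate-conductance calcium-activated channel, was at 31.2, 20.7, 30.2 and 37.2 CPM in the outer ONL and at 2.96, 2.11, 2.96 and 1.96 CPM in the olfactory nerve (3.58 ± 0.26, adjusted p = 4.8e-06). The other 4 higher genes, chosen after their values were seen, were Kcng1 (1.801 ± 0.53), Kcnq5 (1.700 ± 0.30), Kcna2 (1.19 ± 0.18) and Kcnj2 (0.80 ± 0.27). Kcng1 lost its call without any 1 of outer ONL replicates 2 and 4 and olfactory nerve replicates 2, 3 and 4 (adjusted p = 0.0511 to 0.101) and under no filter (adjusted p = 0.0544), and Kcnj2 lost it without any 1 of outer ONL replicates 2 and 3 and olfactory nerve replicates 1, 2 and 4 (adjusted p = 0.0918 to 0.139) and under upper-quartile scaling, total count scaling, no filter and the 5 CPM filter (adjusted p = 0.0534 to 0.0928). Kcne3, an accessory subunit found in epithelia, measured 1.52, 1.83, 1.04 and 1.16 CPM against 19.7, 8.92, 17.1 and 17.01 CPM (-3.49 ± 0.33, adjusted p = 2.3e-05), and Kcnh4 0.457, 0.882, 1.11 and 0 CPM against 4.69, 2.29, 3.88 and 12.4 CPM (-3.24 ± 0.77, adjusted p = 0.00923, or -2.56 without olfactory nerve replicate 4). The number called higher was 8 without outer ONL replicate 1, 3 without olfactory nerve replicate 4 and 2 in the fit of all 31 libraries, without Kcng1 (adjusted p = 0.226), Kcna2 (adjusted p = 0.064) and Kcnj2 (adjusted p = 0.123).

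Cholesterol synthesis genes were higher in the outer ONL. Cells make cholesterol from acetyl-CoA in a long chain of enzymes, the sterol-sensing SREBP factors raise the genes of the path together when sterols are low, and glia that build membrane use it heavily. Of 23 tested genes, 18 were called higher and 0 lower in the outer ONL, with a median of 0.96, and 17 of the 18 were called in every fit that left out 1 library. Hmgcs1, HMG-CoA synthase (ENSMUSG00000093930, chromosome 13, 119690379 to 119708260, plus strand), measured 718, 435, 555 and 491 CPM in the outer ONL and 176, 221, 175 and 173 CPM in the olfactory nerve (1.56 ± 0.17, adjusted p = 6.7e-05). Tm7sf2, a sterol reductase, was at 43.6, 44.7, 31.8 and 38.2 CPM against 13.1, 18.98, 9.54 and 20.9 CPM (1.34 ± 0.24, adjusted p = 0.00181). Insig1, which holds back SREBP activation, measured 27.7, 24.6, 44.9 and 34.5 CPM against 11.9, 14.04, 15.9 and 11.6 CPM (1.300 ± 0.22, adjusted p = 0.00111). For these 3 genes the lowest outer ONL library lay above the highest olfactory nerve library. Squalene epoxidase, Sqle (1.16 ± 0.16), was also called and was chosen after its values were seen. In the inner ONL, the part nearest the bulb, the mean was above that of the outer ONL for 17 of the 18 called genes. By the study's account, the inner ONL pieces also held bulb tissue.

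The start region of Hmgcs1 is shown because it holds a match to a sterol regulatory element, the motif that SREBP factors bind. It is RefSeq sequence of GRCm38.p6 at chr13:119690189-119690247, plus strand, 59 bases that end before the RefSeq start site at 119690351, and the capitals mark the match, whose first base lies 137 bases before that site. The RefSeq start is not the annotated gene start given with the values of Hmgcs1.
Hmgcs1: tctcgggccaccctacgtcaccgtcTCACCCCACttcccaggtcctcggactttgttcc
The letters searched were TCACNCCAC on both strands in the 250 bases before each start. They were found in 346 of 32851 windows (1.05%), in 135 of the 11705 tested genes with a window (1.15%), and in 1 of the 15 cholesterol genes with a window. The olfactory O/E motif, bound by Ebf factors, was in 256 of the 32851 windows (0.779%) and in 0 of 16 windows of mature olfactory receptor neuron genes, 0 of 10 of olfactory progenitor genes and 0 of 15 of odorant receptor genes. The CArG box of smooth muscle genes was in 482 windows (1.47%) and in 0 of 12 windows of mural cell genes. A window without these letters says nothing about the factor.

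Lipid carriers did not move one way. Of 21 tested, 6 were higher and 7 lower (11 lower with the block), with a median of -0.48. Ptgds, a prostaglandin D synthase and lipid carrier made by meninges, was at 204, 185, 125 and 136 CPM in the outer ONL and at 2.96, 6.27, 0.329 and 1.499 CPM in the olfactory nerve (5.87 ± 0.57, adjusted p = 2.7e-05), or 6.65 without olfactory nerve replicate 2. By in situ hybridization the study saw Ptgds both in leptomeninges and in OECs of the nerve layer. The apolipoprotein E receptor gene Lrp8 (2.13 ± 0.40, adjusted p = 0.00229) and the phospholipid transfer protein gene Pltp (1.44 ± 0.21, adjusted p = 3.8e-04), chosen after their values were seen, were higher as well. Lpl, lipoprotein lipase, measured 30.2, 12.2, 13.4 and 19.6 CPM against 273, 79.3, 208 and 204 CPM (-3.34 ± 0.39, adjusted p = 8.4e-05), and clusterin, Clu, 4.49, 17.3, 14.6 and 10.8 CPM against 197, 74.6, 88.7 and 59.2 CPM (-3.15 ± 0.44, adjusted p = 3.3e-04). Pltp (adjusted p = 0.071) was not called in the fit of all 31 libraries.

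Of 24 genes of glycolysis and the response to low oxygen, 5 were higher and 2 lower, with a median of 0.15. The share called was 29.2%, against 24.2% of all genes tested. Aldoc, the aldolase of astroglia, was at 475, 327, 279 and 365 CPM in the outer ONL and at 32.1, 46.03, 34.3 and 56.9 CPM in the olfactory nerve (3.09 ± 0.23, adjusted p = 5.3e-06). The glucose transporter gene Slc2a1 measured 226, 219, 276 and 225 CPM against 112, 129.8, 137 and 92.7 CPM (1.01 ± 0.15, adjusted p = 6.0e-04), with outer ONL replicate 3 above the other 3, and lactate dehydrogenase B, Ldhb, 1179.9, 976, 784 and 1034 CPM against 483, 571, 405 and 562 CPM (0.97 ± 0.17, adjusted p = 0.00126). The glycolytic enzyme genes Pgam1 (0.91 ± 0.14) and Pgk1 (0.47 ± 0.16) completed the higher genes. Pgk1 lost its call without any 1 of outer ONL replicates 1, 3 and 4 and olfactory nerve replicates 1, 2, 3 and 4 (adjusted p = 0.052 to 0.136) and under RLE scaling, upper-quartile scaling, total count scaling, no filter, the 5 CPM filter and the fit of 15 libraries (adjusted p = 0.0515 to 0.0742). Ndrg1, a gene induced by low oxygen and by differentiation, measured 9.51, 16.4, 23.9 and 17.9 CPM against 86.4, 73.3, 76.1 and 81.99 CPM (-2.23 ± 0.24, adjusted p = 4.8e-05), and Bnip3, a low-oxygen gene of mitophagy, 64.2, 62.5, 59.97 and 57.5 CPM against 115, 136, 98.8 and 117 CPM (-0.94 ± 0.14, adjusted p = 4.5e-04). Pgam1, Pgk1 and Bnip3 were chosen after their values were seen.

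Genes of dividing cells were detected in both regions. Of 25 genes of DNA replication and mitosis, 16 were higher and 0 lower in the outer ONL (24 higher with the block), with a median of 0.59. Mcm3, of the replicative helicase, was at 322, 220.4, 273 and 275 CPM in the outer ONL and at 151, 135, 165 and 105 CPM in the olfactory nerve (0.97 ± 0.17, adjusted p = 0.00145). Cdc20, which drives exit from mitosis, measured 371, 237, 281 and 271 CPM against 180.2, 161, 182 and 161 CPM (0.76 ± 0.15, adjusted p = 0.0035), and Mki67, chosen after its values were seen, 236, 282, 249.5 and 297 CPM against 140.3, 169.6, 216 and 164 CPM (0.62 ± 0.16, adjusted p = 0.0119). The helicase genes Mcm6 (0.82 ± 0.23) and Mcm4 (0.80 ± 0.23) overlapped between the groups. Mcm6 lost its call without any 1 of outer ONL replicates 1 and 3 and olfactory nerve replicates 2 and 4 (adjusted p = 0.0522 to 0.0739), and Mcm4 lost it without any 1 of outer ONL replicates 1 and 3 and olfactory nerve replicates 2 and 4 (adjusted p = 0.0562 to 0.0805). The number of members called was 8 without outer ONL replicate 1, 9 without outer ONL replicate 3, 8 without olfactory nerve replicate 2 and 7 without olfactory nerve replicate 4.

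Of the 80 tested genes of cytosolic ribosomal proteins, 0 passed in either direction in edgeR, and their median was 0.002. Without outer ONL replicate 2, 1 was called lower. Of 85 nuclear genes of oxidative phosphorylation, 7 were higher and 2 lower, with a median of 0.21, and the block gave 22 higher, DESeq2 11, and the fits that left out 1 library 3 to 11, with 3 without outer ONL replicate 1 or 2 or olfactory nerve replicate 1, 3 or 4 and 11 without outer ONL replicate 3. The shares of the list called, 8.24% and 2.35%, were below those of all genes tested (10.9% and 13.3%). The complex I genes Ndufaf4, an assembly factor (0.95 ± 0.17, adjusted p = 0.00145), and Ndufa5 (0.83 ± 0.18, adjusted p = 0.00508) were among the higher ones. The 2 lower genes, Ndufa4l2 (-0.95 ± 0.26, adjusted p = 0.017) and Cox4i2 (-0.94 ± 0.28, adjusted p = 0.0265), are also genes of vascular mural cells. Ndufa4l2 lost its call without any 1 of outer ONL replicate 4 and olfactory nerve replicates 1 and 3 (adjusted p = 0.0544 to 0.0585), and Cox4i2 lost it without any 1 of outer ONL replicate 4 and olfactory nerve replicates 1 and 3 (adjusted p = 0.0688 to 0.0824). Of 11 genes encoded in mitochondrial DNA, 4 were higher, with a median of 0.46: mt-Nd2 (0.71 ± 0.20, adjusted p = 0.0235), mt-Nd5 (0.62 ± 0.14, adjusted p = 0.00597), mt-Nd1 (0.57 ± 0.14, adjusted p = 0.0118) and mt-Cytb (0.46 ± 0.15, adjusted p = 0.0357). mt-Nd2 lost its call without any 1 of outer ONL replicates 2 and 4 and olfactory nerve replicates 1 and 3 (adjusted p = 0.0545 to 0.0785) and under total count scaling and the fit of 15 libraries (adjusted p = 0.0842 to 0.0967), and mt-Cytb lost it without any 1 of outer ONL replicates 2, 3 and 4 and olfactory nerve replicates 1, 2 and 3 (adjusted p = 0.0503 to 0.105) and under upper-quartile scaling, total count scaling, no filter, the 5 CPM filter and the fit of 15 libraries (adjusted p = 0.065 to 0.136). In edgeR's fits of 15 and of 31 libraries 0 of the 11 were called, with mt-Nd2 (adjusted p = 0.139), mt-Nd5 (adjusted p = 0.0571), mt-Nd1 (adjusted p = 0.065) and mt-Cytb (adjusted p = 0.0992) in the latter, and under total count scaling 2 were. The fit of all 31 libraries did not call Ndufa4l2 (adjusted p = 0.29) and Cox4i2 (adjusted p = 0.273) either.

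Meninges and vessels. The meninges lie directly on the outer ONL, and of 17 tested meningeal genes 11 were called higher and 2 lower, with a median of 2.94, the highest median of the 43 lists. The list is not exclusive to meninges, since the study found Ptgds in OECs of the nerve layer too. Besides Ptgds, Slc6a13 and Gjb2, the organic anion transporter gene Slc22a6 was at 23.5, 17.9, 37.7 and 26.8 CPM in the outer ONL and at 0, 3.07, 0 and 0.231 CPM in the olfactory nerve (4.98 ± 0.90, adjusted p = 0.00177). Zic4, a zinc finger factor of meninges and dorsal brain, measured 22.7, 20.97, 31.1 and 21.2 CPM against 0, 2.47, 0.263 and 1.85 CPM (4.36 ± 0.70, adjusted p = 7.7e-04). Tbx18, a T-box factor of meninges and mural cells, measured 17.1, 23.6, 21.8 and 22.1 CPM against 0.247, 1.27, 0.986 and 1.67 CPM (4.33 ± 0.41, adjusted p = 2.3e-05). In each of these genes all outer ONL libraries were above all olfactory nerve libraries, and no olfactory nerve library was above 3.07 CPM, the level of Slc22a6 in replicate 2. The 2 lower members, chosen after their values were seen, were the retinoic acid genes Aldh1a2 (81.4, 133, 228 and 181 CPM in the outer ONL and 557, 298, 651 and 418 CPM in the olfactory nerve; -1.63 ± 0.31, adjusted p = 0.00239) and Crabp2 (-2.05 ± 0.28, adjusted p = 3.0e-04), which nasal mesenchyme also expresses. Leaving out olfactory nerve replicate 2 gave log2 fold changes of Slc22a6 8.21, Zic4 5.04, Slc6a13 6.51, Ptgds 6.65 and Gjb2 4.18. With the block Slc22a6 was at 5.68 and Slc6a13 at 5.63. With all 31 libraries in the fit 7 of the 17 were called higher, and Slc22a6 (adjusted p = 0.052), Zic4 (adjusted p = 0.0705) and Aldh1a2 (adjusted p = 0.149) were not called.

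Of 20 tested endothelial genes, 2 were higher and 6 lower, with a median of -0.43. The 2 higher genes are both transporters of the blood-brain barrier. Slco1c1, a thyroid hormone transporter, was at 23.2, 13.9, 15.04 and 9.12 CPM in the outer ONL and at 1.42, 1.63, 1.32 and 1.38 CPM in the olfactory nerve (3.404 ± 0.32, adjusted p = 2.4e-05), and Mfsd2a, a lipid transporter, measured 80.2, 43.4, 54.6 and 65.1 CPM against 4.75, 10.96, 6.91 and 5.77 CPM (3.097 ± 0.28, adjusted p = 1.9e-05). Plvap, the protein of fenestrated and other leaky vessels, measured 3.35, 5.42, 7.696 and 6.08 CPM against 24.9, 7.29, 26.2 and 21.7 CPM (-1.83 ± 0.38, adjusted p = 0.0044), with olfactory nerve replicate 2 inside the outer ONL range. Erg, a factor of all endothelium, measured 2.44, 2.39, 4.23 and 3.53 CPM against 10.4, 12.2, 11.4 and 8.42 CPM (-1.75 ± 0.28, adjusted p = 8.4e-04). With all 31 libraries in the fit 1 of the 20 was called lower, and Erg (adjusted p = 0.151) was not called.

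Genes of vascular mural cells, the smooth muscle and pericytes around vessels, were 3 higher and 12 lower of 20 tested, with a median of -0.96. The lower members with the largest differences were contractile genes. Acta2, smooth muscle actin, was at 2.36, 75.1, 79.7 and 71.3 CPM in the outer ONL and at 2051, 197, 1639 and 833 CPM in the olfactory nerve (-4.37 ± 0.89, adjusted p = 0.00366). Tagln measured 2.36, 15.05, 13.3 and 8.94 CPM against 320.1, 31.2, 255 and 159 CPM (-4.26 ± 0.67, adjusted p = 7.0e-04), and Cnn1, calponin, 0.381, 1.51, 1.11 and 2.19 CPM against 24.8, 1.81, 17.1 and 10.1 CPM (-3.35 ± 0.69, adjusted p = 0.00401). Outer ONL replicate 1 was far below the other 3 outer ONL libraries for Acta2, and olfactory nerve replicate 2 was lowest of its group for all 3 genes. The 3 higher genes were Vtn (1845, 1354, 1086 and 1485 CPM in the outer ONL and 1.91, 136, 2.04 and 27.2 CPM in the olfactory nerve; 5.11 ± 1.10, adjusted p = 0.00531), the Notch target Heyl (580.1, 383, 451 and 547 CPM against 113, 153, 146 and 96.4 CPM; 1.95 ± 0.19, adjusted p = 3.1e-05) and Des, which encodes desmin of muscle (1.32 ± 0.32, adjusted p = 0.01). By in situ hybridization the study found Heyl in OECs of the nerve layer, in some mucosal OECs and in vascular cells. It found Vtn in OECs of the nerve layer, so neither gene marks mural cells alone here. The olfactory nerve libraries of Vtn spread widely, with replicates 2 and 4 above the other 2. Its log2 fold change was 7.11 without olfactory nerve replicate 2 and 6.75 with the block.

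Olfactory epithelium. Genes of epithelial cells were lower in the outer ONL. Of 18 tested, 1 was higher and 16 lower, with a median of -4.92. The keratin gene Krt8 was at 1.07, 1.57, 0.485 and 1.09 CPM in the outer ONL and at 177, 47.7, 51.5 and 79.00 CPM in the olfactory nerve (-6.38 ± 0.51, adjusted p = 8.8e-06). Krt5, a keratin of basal cells, had at most 2 counts in any outer ONL library and 15.2, 1.87, 12.6 and 20.2 CPM in the olfactory nerve, a mean level at least 54.7-fold higher than the floor of 3 counts allows in the outer ONL. Krt14, its partner, measured 0.228, 0.567, 0.208 and 0.0608 CPM against 26.2, 5.12, 16.8 and 29.5 CPM (-6.14 ± 0.66, adjusted p = 5.1e-05), and Cdh1, E-cadherin, 0, 0.126, 0.971 and 0.486 CPM against 38.83, 10.3, 23.9 and 30.6 CPM (-5.99 ± 0.66, adjusted p = 6.2e-05). Krt17, of basal and appendage epithelium, measured 0.0761, 0.189, 0.624 and 0 CPM against 31.9, 7.59, 23.6 and 43.6 CPM (-6.88 ± 0.74, adjusted p = 5.1e-05). In these genes the olfactory nerve libraries varied several-fold among themselves, and replicate 2 was the lowest in each. Krt15 was the member that was higher, at 3.81, 6.36, 9.15 and 3.101 CPM in the outer ONL and 0.247, 2.83, 0.329 and 1.85 CPM in the olfactory nerve (2.08 ± 0.67, adjusted p = 0.0407), and it lost its call without any 1 of outer ONL replicates 1, 2 and 3 and olfactory nerve replicates 1, 3 and 4 (adjusted p = 0.0504 to 0.114) and under upper-quartile scaling, total count scaling and the fit of 15 libraries (adjusted p = 0.0542 to 0.111), and its value was 2.77 without olfactory nerve replicate 2. Over all 17 tested keratin genes 2 were higher, Krt15 and Krt28 (1.83 ± 0.48, adjusted p = 0.0151), and 9 lower, with a median of -2.16. Krt28 lost its call without outer ONL replicate 4 (adjusted p = 0.0516). Krt15 and Krt28 were chosen after their values were seen, and in the fit of all 31 libraries Krt15 (adjusted p = 0.231) and Krt28 (adjusted p = 0.184) were not called. Without outer ONL replicate 2 Krt14 was at -6.86, and without outer ONL replicate 3 the log2 fold changes were Krt5 -10.62, Cdh1 -6.86 and Krt17 -8.13.

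Sustentacular cells and Bowman's glands detoxify odorants and carry the enzymes for it. Of 12 tested genes, 1 was higher and 10 lower, with a median of -5.17, or -4.98 with genes at the floor set at their bound. The 3 genes at the floor in the outer ONL could pass the filter only through the olfactory nerve. Cyp2g1, an olfactory cytochrome P450 (ENSMUSG00000049685, chromosome 7, 26808892 to 26821205, plus strand), had at most 3 counts in any outer ONL library and 11.4, 38.7, 10.7 and 29.00 CPM in the olfactory nerve, which is at least 98.5-fold higher. Cyp2a5, another P450 of the nose with near-identical family members, had at most 1 count per outer ONL library against 5.93, 22.8, 4.87 and 16.3 CPM, at least 54.7-fold higher in the olfactory nerve. Sec14l3, a lipid-binding protein, likewise had at most 1 count against 12.9, 1.87, 7.96 and 7.67 CPM, at least 33.3-fold higher in the olfactory nerve. In contrast to the keratins, Cyp2g1 and Cyp2a5 were highest in olfactory nerve replicate 2. The sulfotransferase gene Sult1c1 measured 0.989, 0, 0 and 0 CPM against 62.7, 25.1, 17.4 and 46.01 CPM (-7.36 ± 0.85, adjusted p = 8.3e-05) and carbonyl reductase Cbr2 3.501, 2.02, 7.07 and 1.399 CPM against 369.6, 237, 260.5 and 644 CPM (-6.77 ± 0.53, adjusted p = 7.7e-06). The higher member, Gsta4, a glutathione transferase of many tissues chosen after its values were seen, measured 419.9, 370.2, 286 and 314 CPM in the outer ONL and 192, 276, 166 and 218 CPM in the olfactory nerve (0.71 ± 0.18, adjusted p = 0.0139) and lost its call without olfactory nerve replicate 3 (adjusted p = 0.0526). The fitted log2 fold change was -12.24 for Sult1c1 without outer ONL replicate 1, the only outer ONL library with a count of it, and -7.39 for Cbr2 without outer ONL replicate 3. For the floor genes the fitted values were -8.601, or -11.47 without outer ONL replicate 2, for Cyp2g1 and -8.26, or -9.91 without outer ONL replicate 3, for Sec14l3, and such values depend on the prior count.

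Over the P450 family, 6 of 25 tested genes were higher and 9 lower, with a median of 0.15. Of the 25, 4 were at the floor in the outer ONL and could pass the filter only through the olfactory nerve. The count lower therefore partly reflects the filter. Cyp2e1, a broad xenobiotic enzyme, was at 0.0761, 0.567, 0.0693 and 0.182 CPM in the outer ONL and at 7.29, 2.95, 5.98 and 8.65 CPM in the olfactory nerve (-4.71 ± 0.61, adjusted p = 1.9e-04, or -5.703 without outer ONL replicate 2), and Cyp26a1, which clears retinoic acid, at 0, 0.441, 1.94 and 1.82 CPM against 9.57, 24.04, 14.01 and 15.4 CPM (-3.88 ± 0.68, adjusted p = 0.00137). The number called higher was 3 without olfactory nerve replicate 3 or 4. Further enzymes led the list of lower genes at 20 CPM or more. Inmt, a methyltransferase, was at 3.27, 3.15, 5.82 and 1.46 CPM in the outer ONL and at 724, 155, 529 and 337 CPM in the olfactory nerve (-7.0 ± 0.55, adjusted p = 7.9e-06), Fmo6, a flavin monooxygenase, at 0.152, 1.26, 4.02 and 0.669 CPM against 131, 54.8, 78.8 and 139 CPM (-6.04 ± 0.63, adjusted p = 4.2e-05), and Sult1e1, estrogen sulfotransferase, at 1.67, 1.57, 1.18 and 0.304 CPM against 198, 22.8, 55.2 and 55.8 CPM (-6.14 ± 0.71, adjusted p = 8.4e-05). Atp6v1b1, a proton pump subunit of specialised epithelia, measured 0.457, 0.252, 0.139 and 0 CPM against 33.1, 12.6, 19.6 and 28.1 CPM (-6.79 ± 0.56, adjusted p = 1.0e-05). Inmt, Sult1e1 and Atp6v1b1 had olfactory nerve replicate 1 on top, and for Sult1e1 that library was several times the next. The value was -5.24 for Sult1e1 without olfactory nerve replicate 1, -7.13 for Fmo6 without outer ONL replicate 3 and -7.43 for Atp6v1b1 without outer ONL replicate 1.

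The cell bodies of olfactory receptor neurons lie in the epithelium, and their axons run through both regions. Of 20 tested genes of mature olfactory receptor neurons, 12 were lower and 2 higher, with a median of -1.74. Omp, the olfactory marker protein, was at 14.00, 14.6, 10.1 and 12.04 CPM in the outer ONL and 48.1, 43.5, 23.5 and 43.4 CPM in the olfactory nerve (-1.64 ± 0.24, adjusted p = 3.8e-04), so it was detected in every outer ONL library, below the lowest olfactory nerve library. Rtp1, which brings odorant receptors to the surface, measured 0, 3.09, 2.63 and 1.22 CPM against 47.6, 32.6, 38.5 and 79.4 CPM (-4.81 ± 0.63, adjusted p = 1.9e-04), and Rtp2 1.14, 1.45, 2.57 and 1.64 CPM against 30.99, 29.1, 24.7 and 64.1 CPM (-4.45 ± 0.37, adjusted p = 1.1e-05). Cnga2, the olfactory cyclic nucleotide-gated channel, measured 0.685, 0.504, 0.971 and 1.28 CPM against 35.1, 20.2, 19.8 and 36.8 CPM (-5.0 ± 0.36, adjusted p = 4.8e-06), and Ano2, its partner chloride channel, 0, 0.0630, 1.53 and 0.122 CPM against 12.8, 5.24, 8.02 and 15.9 CPM (-4.61 ± 0.85, adjusted p = 0.00198, or -7.17 without outer ONL replicate 3). The 2 higher members, chosen after their values were seen, were Cngb1, a channel subunit also used outside the nose (15.2, 13.54, 6.93 and 8.94 CPM in the outer ONL and 4.69, 3.68, 4.21 and 3.98 CPM in the olfactory nerve; 1.43 ± 0.29, adjusted p = 0.00384), and Nqo1, a quinone reductase (1.18 ± 0.23, adjusted p = 0.00319). Cngb1 (adjusted p = 0.191), Nqo1 (adjusted p = 0.0738) and Omp (adjusted p = 0.154) were not called in the fit of all 31 libraries.

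Of the 1051 odorant receptor genes in the table, 19 passed the filter, 12 of them lower and 2 higher, with a median of -4.57, or -2.90 with the 9 genes at the floor in the outer ONL set at their bound. Those 9 genes could pass the filter only through the olfactory nerve, so the count lower and the median partly reflect the filter. Olfr672 had 0 counts in every outer ONL library and 2.16, 1.02, 11.4 and 7.38 CPM in the olfactory nerve, at least 24.1-fold higher, and Olfr669 had at most 3 counts against 12.4, 4.58, 1.45 and 5.13 CPM, at least 25.8-fold higher. Olfr231 measured 0, 0, 0.832 and 0 CPM against 12.3, 0.301, 0.723 and 6.804 CPM (-4.57 ± 1.33, adjusted p = 0.026) and Olfr558 0.533, 1.64, 2.704 and 0.486 CPM against 13.9, 5.42, 10.9 and 5.77 CPM (-2.74 ± 0.55, adjusted p = 0.00339). Olfr231 rested on olfactory nerve replicates 1 and 4 and lost its call with the block (adjusted p = 0.0579), in DESeq2 (adjusted p = 0.0846) and without any 1 of outer ONL replicates 1, 2 and 4 and olfactory nerve replicates 1 and 4 (adjusted p = 0.0601 to 0.0831), and its fitted value was -9.31 without outer ONL replicate 3. The 2 higher receptors, chosen after their values were seen, were Olfr32 (17.7, 9.13, 14.1 and 9.55 CPM in the outer ONL and 0.926, 1.81, 1.91 and 3.34 CPM in the olfactory nerve; 2.65 ± 0.39, adjusted p = 4.6e-04) and Olfr1270 (2.34 ± 0.65, adjusted p = 0.0203), which lost its call without outer ONL replicate 3 (adjusted p = 0.0509). Olfr558 (adjusted p = 0.0669) and Olfr32 (adjusted p = 0.11) were not called in the fit of all 31 libraries. Without outer ONL replicate 3 Olfr558 was at -3.34. Reads of near-identical receptors can be split or lost in counting, so single receptors are uncertain.

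Progenitor genes of the olfactory epithelium gave the most uniform direction of the neuronal lists, with 0 higher and 14 lower of 15 tested and a median of -2.20. Fezf1, a zinc finger factor of the olfactory epithelium, was at 0.609, 1.01, 1.803 and 0.122 CPM in the outer ONL and at 79.6, 27.2, 62.1 and 104 CPM in the olfactory nerve (-6.27 ± 0.58, adjusted p = 1.9e-05). The proneural genes followed, with Neurog1 at 0.304, 2.02, 0.971 and 0.122 CPM against 30.9, 9.82, 19.6 and 40.8 CPM (-4.86 ± 0.66, adjusted p = 2.6e-04) and Neurod1 at 0.228, 5.29, 2.57 and 1.76 CPM against 66.99, 19.6, 50.6 and 99.1 CPM (-4.56 ± 0.65, adjusted p = 3.6e-04). Insm1, a factor of newborn neurons, measured 0, 1.57, 0.139 and 0.608 CPM against 11.1, 7.77, 8.02 and 24.9 CPM (-4.42 ± 0.76, adjusted p = 0.00127). In the outer ONL replicate 2 held the most of Neurog1, Neurod1 and Insm1, and without it the log2 fold changes were Neurog1 -5.77, Neurod1 -5.26 and Insm1 -5.58, and without outer ONL replicate 3 Fezf1 was at -6.88.

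Motile cilia genes, which mark ciliated respiratory epithelium and ependyma, were 0 higher and 8 lower of 17 tested, with a median of -1.24. Cfap206 was at 0.304, 1.13, 1.32 and 1.95 CPM in the outer ONL and at 14.8, 11.99, 13.2 and 23.01 CPM in the olfactory nerve (-3.72 ± 0.44, adjusted p = 9.7e-05), and Rsph1, of the radial spoke, at 6.32, 9.13, 4.65 and 6.57 CPM against 31.9, 22.8, 19.00 and 40.6 CPM (-2.097 ± 0.29, adjusted p = 2.7e-04). Pifo (-2.18 ± 0.38, adjusted p = 0.00134) and Tekt2 (-1.797 ± 0.32, adjusted p = 0.00145) were lower as well. With all 31 libraries fitted 5 of the 17 were called, without Pifo (adjusted p = 0.191). Foxj1, the master factor of motile cilia, measured 0.0761, 0.315, 0.0693 and 0 CPM against 1.91, 1.39, 1.71 and 4.73 CPM (-4.298 ± 0.76, adjusted p = 0.0015, or -5.52 without outer ONL replicate 2).

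Axonal and bulb transcripts. Of 20 genes of immature neurons and growing axons, 1 was higher and 4 lower, with a median of -0.28. Ncam1, the neural cell adhesion molecule, which OECs also carry, was the higher one, at 441, 456, 348 and 506 CPM in the outer ONL and 190.3, 309.6, 185 and 286 CPM in the olfactory nerve (0.85 ± 0.20, adjusted p = 0.00766), and it was chosen after its values were seen. Elavl4, an RNA-binding protein of neurons, was at 18.3, 54.5, 12.6 and 42.02 CPM in the outer ONL and at 196, 89.3, 131 and 263 CPM in the olfactory nerve (-2.41 ± 0.45, adjusted p = 0.00212), and Gng8, a G protein subunit of immature olfactory neurons, at 11.7, 15.9, 9.15 and 11.8 CPM against 45.9, 40.3, 37.7 and 75.4 CPM (-2.04 ± 0.25, adjusted p = 1.4e-04). Dpysl5 (-1.84 ± 0.58, adjusted p = 0.0378) and the adhesion molecule gene L1cam (-1.59 ± 0.46, adjusted p = 0.0259) were weaker. Dpysl5 lost its call without any 1 of outer ONL replicates 1, 3 and 4 and olfactory nerve replicates 1, 3 and 4 (adjusted p = 0.0538 to 0.125), and L1cam lost it without any 1 of olfactory nerve replicates 3 and 4 (adjusted p = 0.0536 to 0.0615). The number called lower was 7 with the block, 8 without outer ONL replicate 2, and 2 without olfactory nerve replicate 3 or 4. In Elavl4, Dpysl5 and L1cam outer ONL replicates 2 and 4 stood above replicates 1 and 3.

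The same outer ONL libraries, 2 and 4, carried more of the transcripts of bulb and forebrain neurons, of which 3 of 15 tested were higher and 3 lower, with a median of -0.22. Gad1, the GABA-synthesising enzyme, was at 4.11, 18.3, 5.69 and 17.8 CPM in the outer ONL and at 0, 4.097, 1.12 and 0.692 CPM in the olfactory nerve (2.95 ± 0.86, adjusted p = 0.026), and the interneuron factor Dlx1 at 1.98, 13.7, 1.32 and 7.18 CPM against 0.185, 0.723, 0.395 and 0.173 CPM (4.01 ± 0.79, adjusted p = 0.00292). Tbr1, of bulb projection neurons, was chosen after its values were seen and measured 0.609, 7.24, 1.11 and 3.53 CPM against 0.247, 0.904, 0 and 0.692 CPM (2.73 ± 0.89, adjusted p = 0.0437). Gad1 lost its call in DESeq2 (adjusted p = 0.0546) and without any 1 of outer ONL replicates 2 and 4 and olfactory nerve replicates 3 and 4 (adjusted p = 0.0678 to 0.0858), and Tbr1 lost it without any 1 of outer ONL replicates 2 and 4 and olfactory nerve replicates 1, 3 and 4 (adjusted p = 0.0813 to 0.163) and under upper-quartile scaling and total count scaling (adjusted p = 0.053 to 0.0651). Without outer ONL replicate 2 Dlx1 was at 3.202, and without olfactory nerve replicate 2 Gad1 was at 4.24. Dlx5 (-2.72 ± 0.44, adjusted p = 8.6e-04), Dlx6 (-2.897 ± 0.72, adjusted p = 0.0119, chosen after its values were seen, or -4.03 without outer ONL replicate 4) and Sp8 (-2.82 ± 0.57, adjusted p = 0.00373), which are also genes of nasal epithelium and mesenchyme, were lower. The number called lower was 5 with the block or without outer ONL replicate 2, and in the fit of all 31 libraries Gad1 (adjusted p = 0.109) and Tbr1 (adjusted p = 0.318) were not called. The summed level of the list ran from 22.5 to 231 CPM over the outer ONL libraries, lowest in replicate 1, and from 153 to 244 CPM over the olfactory nerve libraries.

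Genes of neural progenitors and astroglia of the brain were divided, with 6 higher and 6 lower of 17 tested and a median of 0.53. Hes5, a Notch target, was at 34.7, 22.8, 29.5 and 35.1 CPM in the outer ONL and at 3.15, 3.07, 1.78 and 1.85 CPM in the olfactory nerve (3.63 ± 0.27, adjusted p = 5.3e-06). Together with Slc1a3 and Aldoc, given above at 3.59 (4.31 without olfactory nerve replicate 2) and 3.09, it was one of the 3 members that were also higher relative to Sox10. By in situ hybridization the study found Hes5 in OECs of the nerve layer and not in mucosal OECs, so Hes5 does not mark brain cells alone here. Olig1 measured 0.761, 0.693, 0.347 and 0.304 CPM against 11.4, 5.54, 8.42 and 25.4 CPM (-4.58 ± 0.55, adjusted p = 1.0e-04) and Olig2 0, 0.630, 0 and 0.426 CPM against 4.45, 5.54, 3.42 and 13.6 CPM (-4.58 ± 0.82, adjusted p = 0.00162, or -5.397 without outer ONL replicate 2). Both are factors of oligodendrocyte precursors and both were highest in olfactory nerve replicate 4. In the fit of all 31 libraries 3 were called higher and 3 lower.

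**Figure D3:**
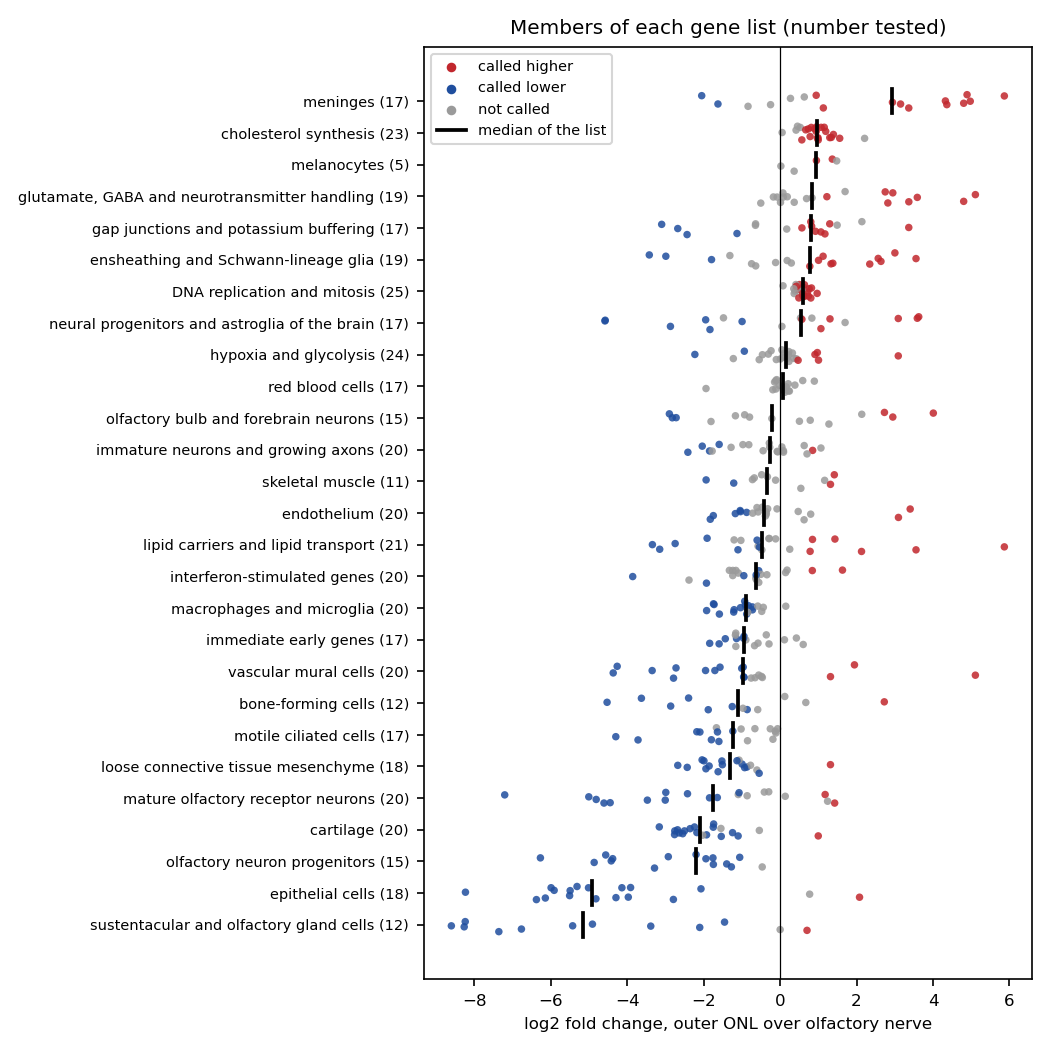
Each point is a tested gene of the list named on the left, with the number tested in brackets, at its log2 fold change, outer ONL over olfactory nerve. Red points were called higher, blue points lower and grey points were not called, and the black bar is the median of the list. Meninges have the highest median (2.94), and epithelial cells (-4.92) and sustentacular and olfactory gland cells (-5.17) the lowest.

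Connective tissue, cartilage and bone. Loose connective tissue genes were 1 higher and 14 lower of 18 tested, with a median of -1.32. Ogn, the small proteoglycan osteoglycin, was at 25.8, 51.6, 83.1 and 46.7 CPM in the outer ONL and at 364, 321, 347 and 293 CPM in the olfactory nerve (-2.68 ± 0.28, adjusted p = 5.0e-05). The mesenchymal homeobox genes Prrx1 (15.1, 25.9, 24.2 and 23.4 CPM against 95.6, 61.2, 119 and 77.5 CPM; -1.99 ± 0.23, adjusted p = 9.1e-05) and Prrx2 (-2.43 ± 0.39, adjusted p = 7.7e-04) and the bHLH gene Twist1 (-2.04 ± 0.38, adjusted p = 0.00211) were lower too. Outer ONL replicate 1 held the least of all 4 genes. Osr1 was the higher member, chosen after its values were seen, at 9.06, 11.1, 19.1 and 19.2 CPM in the outer ONL and 2.53, 10.3, 4.603 and 5.94 CPM in the olfactory nerve (1.32 ± 0.40, adjusted p = 0.0318), and it lost its call without any 1 of outer ONL replicates 3 and 4 and olfactory nerve replicates 1, 3 and 4 (adjusted p = 0.0668 to 0.096) and under total count scaling and the fit of 15 libraries (adjusted p = 0.0652 to 0.0781). Osr1 (adjusted p = 0.194) was not called in the fit of all 31 libraries.

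Matrix genes followed the same direction, with 25 of 42 tested collagen genes lower and 3 higher and a median of -0.98. Col14a1, a fibril-associated collagen, was at 6.77, 44.9, 75.4 and 34.1 CPM in the outer ONL and at 274, 320.4, 302 and 272 CPM in the olfactory nerve (-2.86 ± 0.49, adjusted p = 0.00132). Col8a1, of vessel and basement membranes, measured 14.8, 53.1, 69.8 and 48.1 CPM against 461, 209, 501 and 316 CPM (-3.0 ± 0.41, adjusted p = 2.9e-04), Col20a1 6.697, 14.1, 15.7 and 8.82 CPM against 61.3, 35.97, 79.6 and 59.9 CPM (-2.38 ± 0.30, adjusted p = 1.6e-04), and Col10a1, of hypertrophic cartilage, 0.457, 0.504, 0.485 and 0.973 CPM against 4.51, 8.796, 4.27 and 12.7 CPM (-3.62 ± 0.47, adjusted p = 2.0e-04). The higher ones, chosen after their values were seen, were Col22a1 (2.73 ± 0.49, adjusted p = 0.0016), Col4a5 (0.88 ± 0.24, adjusted p = 0.0181) and Col4a6 (0.78 ± 0.24, adjusted p = 0.0371), the last pair being chains of basement membrane. Col4a5 lost its call without any 1 of outer ONL replicate 3 and olfactory nerve replicate 4 (adjusted p = 0.0625 to 0.0683), and Col4a6 lost it without any 1 of outer ONL replicates 2 and 3 and olfactory nerve replicates 1, 2, 3 and 4 (adjusted p = 0.06 to 0.118) and under total count scaling, no filter and the fit of 15 libraries (adjusted p = 0.0677 to 0.202). Without olfactory nerve replicate 4 the number called higher was 1. Abundant matrix genes differed by less. Fstl1, a secreted glycoprotein, measured 862, 801, 1069.9 and 803 CPM against 1731, 1876, 1938 and 1524 CPM (-1.0 ± 0.15, adjusted p = 5.3e-04), Sparc, a collagen-binding protein, 2074, 2659, 2674 and 2665 CPM against 3662, 4665, 3762 and 3184 CPM (-0.60 ± 0.16, adjusted p = 0.0178), and Col1a2, a fibrillar collagen, 724, 1290, 1992 and 1638 CPM against 2549.7, 2428, 3252 and 2076 CPM (-0.87 ± 0.27, adjusted p = 0.0331). Postn, periostin, was lower (-0.55 ± 0.18, adjusted p = 0.0419). Col1a2 lost its call without any 1 of outer ONL replicates 2 and 4 and olfactory nerve replicates 1 and 3 (adjusted p = 0.0507 to 0.11), and Postn lost it without any 1 of outer ONL replicates 2 and 4 and olfactory nerve replicates 1, 2 and 3 (adjusted p = 0.0628 to 0.14). The cytoskeletal genes Actg1, a cytoplasmic actin (-0.44 ± 0.13, adjusted p = 0.0264), and Tmsb4x, thymosin beta 4 (-0.62 ± 0.19, adjusted p = 0.0354), were among the 6 most abundant genes called lower. In the fit of all 31 libraries Sparc (adjusted p = 0.0523), Postn (adjusted p = 0.526), Tmsb4x (adjusted p = 0.0892) and Col4a6 (adjusted p = 0.395) were not called, and without filtering Actg1 was not called (adjusted p = 0.0512).

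Cartilage genes were 1 higher and 16 lower of 20 tested, with a median of -2.10. Hapln1, the link protein of cartilage matrix, was at 4.72, 14.5, 19.6 and 16.8 CPM in the outer ONL and at 29.8, 179, 62.2 and 107 CPM in the olfactory nerve (-2.76 ± 0.52, adjusted p = 0.00231). Matn3, a matrilin, measured 3.27, 4.97, 7.77 and 8.45 CPM against 10.5, 83.4, 28.9 and 34.8 CPM (-2.68 ± 0.53, adjusted p = 0.00299), and Chad, chondroadherin, 0.989, 8.25, 9.64 and 10.9 CPM against 15.99, 105, 29.5 and 51.7 CPM (-2.75 ± 0.64, adjusted p = 0.00809). Ucma, of growing cartilage, measured 0, 0.693, 0.832 and 0.851 CPM against 1.36, 10.6, 2.63 and 7.21 CPM (-3.16 ± 0.78, adjusted p = 0.0113), and Col2a1, the main cartilage collagen, chosen after its values were seen, 263, 491, 697 and 780.2 CPM against 634, 3693, 1536 and 1584 CPM (-1.74 ± 0.46, adjusted p = 0.0164). Olfactory nerve replicate 2 carried the most of all 5 genes. Without it Chad was at -2.11 and Matn3 at -2.01, and all 5 genes were still called. Matn4, a matrilin that brain and nerve also express, was the higher member, at 517, 450.3, 670.4 and 677 CPM in the outer ONL and 199, 401, 311 and 247 CPM in the olfactory nerve (1.0 ± 0.22, adjusted p = 0.0058), and it was chosen after its values were seen. Matn4 (adjusted p = 0.101) was not called in the fit of all 31 libraries.

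Bone-forming cells gave 1 higher and 7 lower of 12 tested genes, with a median of -1.11. Omd, osteomodulin, was at 1.07, 5.29, 8.67 and 4.804 CPM in the outer ONL and at 73.8, 64.2, 53.1 and 55.5 CPM in the olfactory nerve (-3.63 ± 0.43, adjusted p = 9.5e-05), and Panx3, a channel of bone and cartilage cells, at 1.22, 2.14, 3.26 and 2.07 CPM against 18.6, 20.2, 14.3 and 10.4 CPM (-2.86 ± 0.34, adjusted p = 9.7e-05). Dlx3 (-4.53 ± 0.78, adjusted p = 0.00124, or -6.19 without outer ONL replicate 2) and Dmp1 (-2.39 ± 0.48, adjusted p = 0.00354) were lower as well. Col22a1, given above, was the higher one. In the fit of all 31 libraries 3 were called lower, without Dmp1 (adjusted p = 0.128).

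Immune cells and blood. Of 20 genes of macrophages and microglia, 0 were higher and 14 lower, with a median of -0.89. Ptprc, the leukocyte antigen CD45, was at 4.11, 2.83, 3.88 and 2.61 CPM in the outer ONL and at 17.8, 4.34, 21.9 and 6.92 CPM in the olfactory nerve (-1.92 ± 0.47, adjusted p = 0.0102), and Cd14 at 5.86, 2.96, 2.08 and 4.14 CPM against 18.3, 8.62, 14.4 and 8.94 CPM (-1.74 ± 0.37, adjusted p = 0.00455). Lyve1, of perivascular macrophages and lymphatic vessels, measured 7.53, 5.23, 15.7 and 9.304 CPM against 42.04, 14.2, 45.2 and 23.8 CPM (-1.73 ± 0.40, adjusted p = 0.00768), and F13a1, a coagulation factor of tissue macrophages, 37.3, 28.1, 94.5 and 42.1 CPM against 237, 49.4, 239 and 81.4 CPM (-1.59 ± 0.50, adjusted p = 0.0371). Olfactory nerve replicates 1 and 3 held the most of all 4, and for Lyve1 and F13a1 the groups overlapped. F13a1 lost its call without any 1 of outer ONL replicates 1, 2 and 4 and olfactory nerve replicates 1 and 3 (adjusted p = 0.0864 to 0.12). The number called lower was 9 without olfactory nerve replicate 1, and in the fit of all 31 libraries it was 1, without Cd14 (adjusted p = 0.0512), Lyve1 (adjusted p = 0.307) and F13a1 (adjusted p = 0.0958).

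Adhesion G protein-coupled receptors, a family that includes the macrophage antigen Adgre1, were 4 higher and 2 lower of 23 tested, with a median of -0.11. The share called, 26.1%, was near that of all genes tested (24.2%), so the family did not stand out and single genes are given. Adgrg1, a receptor of neural and glial precursors, was at 227, 140.3, 165 and 196 CPM in the outer ONL and at 44.6, 20.2, 46.4 and 37.7 CPM in the olfactory nerve (2.29 ± 0.25, adjusted p = 6.2e-05), Adgrb1 at 3.27, 6.36, 4.09 and 6.63 CPM against 0.864, 1.02, 0.855 and 0.865 CPM (2.49 ± 0.36, adjusted p = 4.2e-04) and Adgrv1 at 10.05, 7.37, 8.18 and 7.12 CPM against 1.73, 1.63, 1.05 and 2.54 CPM (2.23 ± 0.33, adjusted p = 4.4e-04). The study saw weak Adgrg1 signal by in situ hybridization in OECs of the nerve layer and in at least some mucosal OECs. Adgra3 (0.71 ± 0.19, adjusted p = 0.0159) was the fourth, chosen after its values were seen, and lost its call without any 1 of outer ONL replicates 2 and 4 (adjusted p = 0.0501 to 0.0547) and under total count scaling (adjusted p = 0.0613). Adgre1 (-1.09 ± 0.35, adjusted p = 0.0416) and the leukocyte gene Adgre5 (-0.84 ± 0.24, adjusted p = 0.0248, chosen after its values were seen) were lower. Adgre1 lost its call without any 1 of outer ONL replicates 2 and 4 and olfactory nerve replicates 1 and 3 (adjusted p = 0.0897 to 0.127), and Adgre5 lost it without any 1 of outer ONL replicates 2 and 4 and olfactory nerve replicates 1 and 3 (adjusted p = 0.0544 to 0.0841). The block called 4 lower. Adgre1 (adjusted p = 0.316) and Adgre5 (adjusted p = 0.202) were not called in the fit of all 31 libraries.

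Chemokine genes were 3 higher and 8 lower of 21 tested, with a median of -0.20. Cxcl15 had at most 2 counts per outer ONL library and 8.95, 2.59, 5.46 and 8.59 CPM in the olfactory nerve, at least 28.1-fold higher. Ccl20, which epithelium makes, was at 0.228, 0.315, 0.485 and 0.122 CPM in the outer ONL and at 8.64, 1.57, 10.00 and 16.6 CPM in the olfactory nerve (-4.97 ± 0.70, adjusted p = 3.3e-04), Cxcl14 at 0.304, 0.189, 0.416 and 1.09 CPM against 7.22, 0.964, 5.92 and 11.3 CPM (-3.62 ± 0.72, adjusted p = 0.00323, or -4.36 without outer ONL replicate 4) and Cxcl5 at 3.88, 3.97, 2.77 and 2.55 CPM against 21.1, 8.796, 20.8 and 16.03 CPM (-2.34 ± 0.32, adjusted p = 2.5e-04). For each of these olfactory nerve replicate 2 held the least. The higher ones, all under 4 CPM and chosen after their values were seen, were Cxcl13 (2.23 ± 0.46, adjusted p = 0.00393), Ccl3 (2.21 ± 0.50, adjusted p = 0.0073) and Ccl4 (1.62 ± 0.52, adjusted p = 0.0385). Ccl4 lost its call with the block (adjusted p = 0.0705), in DESeq2 (adjusted p = 0.0518) and without any 1 of outer ONL replicates 1, 3 and 4 and olfactory nerve replicates 1, 3 and 4 (adjusted p = 0.0839 to 0.114) and under upper-quartile scaling, total count scaling, no filter and the fit of 15 libraries (adjusted p = 0.0504 to 0.0918). Cxcl5 (adjusted p = 0.152) and Ccl4 (adjusted p = 0.185) were not called in the fit of all 31 libraries.

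Interferon-stimulated genes were 2 higher and 5 lower of 20 tested, with a median of -0.63. Ifitm1, an interferon-induced membrane protein of mesenchyme and germ cells, was at 2.74, 4.91, 5.69 and 2.68 CPM in the outer ONL and at 62.8, 27.8, 49.4 and 92.4 CPM in the olfactory nerve (-3.86 ± 0.39, adjusted p = 3.4e-05), and Oasl2 at 3.96, 3.53, 4.92 and 4.44 CPM against 18.7, 7.47, 24.9 and 13.03 CPM (-1.93 ± 0.34, adjusted p = 0.00156). Ifitm3 was lower (-0.95 ± 0.19, adjusted p = 0.00333). Iigp1, an interferon-induced GTPase outside the list, was one of the 12 leading lower genes, at 0.304, 0.126, 0.971 and 0.912 CPM against 76.1, 18.6, 79.05 and 49.4 CPM (-6.56 ± 0.59, adjusted p = 1.6e-05). Rsad2, viperin, went the other way, at 63.5, 20.1, 29.7 and 31.4 CPM against 23.5, 5.24, 8.94 and 8.995 CPM (1.63 ± 0.45, adjusted p = 0.0196), and so did the RNA sensor Ifih1 (0.84 ± 0.26, adjusted p = 0.0355), chosen after its values were seen. Rsad2 lost its call without any 1 of outer ONL replicate 1 and olfactory nerve replicates 3 and 4 (adjusted p = 0.0585 to 0.0655), and its value was 2.23 without olfactory nerve replicate 1. Ifih1 lost its call without any 1 of outer ONL replicates 1 and 3 and olfactory nerve replicates 1, 2, 3 and 4 (adjusted p = 0.0544 to 0.116) and under total count scaling, no filter and the fit of 15 libraries (adjusted p = 0.0539 to 0.0584). The number called lower was 3 without outer ONL replicate 4, 10 without olfactory nerve replicate 2, 8 with the block, 9 in DESeq2 and 2 in the fit of all 31 libraries, where Ifitm3 (adjusted p = 0.245), Rsad2 (adjusted p = 0.152) and Ifih1 (adjusted p = 0.14) were not called.

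Immediate early genes, which cells switch on within minutes of a stimulus, were 0 higher and 6 lower of 17 tested, with a median of -0.94. Ier3 was at 14.8, 19.96, 18.6 and 19.2 CPM in the outer ONL and at 89.6, 42.4, 69.2 and 59.05 CPM in the olfactory nerve (-1.84 ± 0.22, adjusted p = 1.1e-04), and Fos at 3.04, 4.97, 7.97 and 6.99 CPM against 11.9, 18.4, 18.7 and 13.2 CPM (-1.43 ± 0.31, adjusted p = 0.00503). Fosl2 (-1.59 ± 0.41, adjusted p = 0.0133) and Egr1 (-1.14 ± 0.37, adjusted p = 0.0415) were lower as well. Egr1 lost its call without any 1 of outer ONL replicates 1, 2 and 4 and olfactory nerve replicates 2, 3 and 4 (adjusted p = 0.0672 to 0.132). Without olfactory nerve replicate 2, 1 member was called higher, and in the fit of all 31 libraries 3 were called lower, without Fos (adjusted p = 0.167) and Egr1 (adjusted p = 0.0805).

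Serpin genes, which encode protease inhibitors, were 1 higher and 7 lower of 13 tested, with a median of -0.82. Serping1, the complement C1 inhibitor, was at 33.3, 63.5, 86.6 and 59.3 CPM in the outer ONL and at 497, 180.2, 363 and 206 CPM in the olfactory nerve (-2.36 ± 0.35, adjusted p = 4.6e-04). Serpina3n measured 1.83, 1.07, 0.555 and 1.95 CPM against 45.1, 15.1, 28.2 and 13.3 CPM (-4.23 ± 0.48, adjusted p = 8.1e-05), and Serpina3g, a member of the same gene cluster, was lower too (-2.66 ± 0.55, adjusted p = 0.00388). Serpinb8 was lower (-4.47 ± 0.78, adjusted p = 0.00143, or -5.21 without outer ONL replicate 3), and Serpinb6b (2.21 ± 0.41, adjusted p = 0.00207), chosen after its values were seen, was the higher one. Serpina3g (adjusted p = 0.0998) was not called in the fit of all 31 libraries.

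Red blood cell genes gave 0 calls in either direction among 17 tested in edgeR, with a median of 0.09, and 1 lower with the block or without outer ONL replicate 3. Of 11 skeletal muscle genes, 2 were higher and 2 lower, with a median of -0.33: Des (1.32 ± 0.32, adjusted p = 0.01), Tnnt3 (1.42 ± 0.43, adjusted p = 0.0297), Tnnt1 (-1.21 ± 0.29, adjusted p = 0.0103) and Tnni1 (-1.94 ± 0.61, adjusted p = 0.0375). Tnnt3 and Tnni1 were chosen after their values were seen. Tnnt3 lost its call with the block (adjusted p = 0.0551) and without any 1 of outer ONL replicates 1 and 2 and olfactory nerve replicates 1 and 2 (adjusted p = 0.0559 to 0.0966) and under total count scaling (adjusted p = 0.0509), and Tnni1 lost it without any 1 of outer ONL replicates 1, 2 and 4 and olfactory nerve replicates 1, 2 and 3 (adjusted p = 0.0638 to 0.121), with a value of -2.59 without outer ONL replicate 3. Of 5 melanocyte genes, 2 were higher and 0 lower, with a median of 0.95. These were Pmel, a melanosome protein, at 6.697, 4.28, 5.06 and 4.32 CPM against 2.04, 2.47, 2.04 and 1.33 CPM (1.37 ± 0.33, adjusted p = 0.00981), and Mitf (0.95 ± 0.28, adjusted p = 0.0257). Mitf lost its call without any 1 of outer ONL replicates 3 and 4 and olfactory nerve replicates 1, 2 and 3 (adjusted p = 0.05 to 0.0873) and under total count scaling (adjusted p = 0.0642). Pmel (adjusted p = 0.114), Mitf (adjusted p = 0.0946), Tnnt3 (adjusted p = 0.147) and Tnni1 (adjusted p = 0.251) were not called in the fit of all 31 libraries. The muscle and melanocyte genes named were below 20 CPM in every library.

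Transcription factors. Homeobox genes were 6 higher and 23 lower of 49 tested, with a median of -1.27. Of the 49, 2 (Uncx and Tlx1) were at the floor in the outer ONL and could pass the filter only through the olfactory nerve. Pax9, a paired-box gene of facial mesenchyme, was at 0.228, 0.819, 1.73 and 1.16 CPM in the outer ONL and at 104, 42.5, 124 and 89.2 CPM in the olfactory nerve (-6.48 ± 0.47, adjusted p = 4.8e-06). Gsc (-5.81 ± 0.59, adjusted p = 3.8e-05) and Pitx1 (-5.13 ± 0.68, adjusted p = 2.2e-04), of facial mesenchyme and oral epithelium, were lower too. Alx4, of frontonasal mesenchyme, was higher, at 203, 140.3, 216 and 166 CPM against 44.4, 58.9, 63.4 and 52.8 CPM (1.72 ± 0.18, adjusted p = 3.8e-05). Uncx had at most 3 counts per outer ONL library and was at least 18.1-fold higher in the olfactory nerve, and Tlx1 had 0 counts in the outer ONL and was at least 4.80-fold higher. Nkx1-2 measured 7.002, 3.84, 6.03 and 5.41 CPM against 0, 0, 0.0658 and 0.577 CPM (5.01 ± 0.80, adjusted p = 7.8e-04), and Pou3f3, a brain factor, 1.29, 6.67, 1.04 and 3.71 CPM against 0, 0.964, 0 and 0.519 CPM (3.06 ± 0.96, adjusted p = 0.0367). Pou3f3 lost its call without any 1 of outer ONL replicates 2 and 4 and olfactory nerve replicates 1, 3 and 4 (adjusted p = 0.071 to 0.12) and under total count scaling (adjusted p = 0.0555), and in the fit of all 31 libraries Pou3f3 (adjusted p = 0.105) was not called. Without olfactory nerve replicate 4 Nkx1-2 was at 7.57, without olfactory nerve replicate 2 Pou3f3 was at 4.09, without outer ONL replicate 3 Gsc was at -6.59 and Uncx at -9.03, and without outer ONL replicate 2 Pitx1 was at -5.92.

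Basic helix-loop-helix genes were 5 higher and 15 lower of 31 tested, with a median of -0.72. Notch targets were among the higher ones. Hey2 was at 459.5, 323, 374 and 322 CPM in the outer ONL and at 85.4, 114, 81.5 and 58.8 CPM in the olfactory nerve (2.12 ± 0.21, adjusted p = 2.7e-05), beside Heyl (1.95) and Hes5 (3.63). The study's in situ hybridization showed Hey2 in OECs of both the nerve layer and the mucosa. Neurog2 had 1 count in all olfactory nerve libraries together and 1.45, 1.83, 1.53 and 0.791 CPM in the outer ONL, at least 7.10-fold higher, and Ascl2 (1.82 ± 0.49, adjusted p = 0.0186) was chosen after its values were seen and lost its call without outer ONL replicate 2 (adjusted p = 0.0564) and under no filter (adjusted p = 0.0632). Ascl2 (adjusted p = 0.238) was not called in the fit of all 31 libraries. The fitted value of Neurog2 was 5.91, or 7.45 without olfactory nerve replicate 1. Nhlh1 measured 0.152, 0.567, 0.277 and 0.0608 CPM against 15.7, 5.48, 10.5 and 27.4 CPM (-5.75 ± 0.64, adjusted p = 6.7e-05), and Nhlh2 0.304, 0.567, 0.139 and 0.365 CPM against 14.4, 4.28, 10.98 and 21.3 CPM (-5.16 ± 0.56, adjusted p = 5.5e-05). Both are factors of young olfactory neurons, and without outer ONL replicate 2 Nhlh1 was at -6.47.

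Among forkhead, Sox, T-box, Zic and nuclear factor I genes, 15 were higher and 11 lower of 53 tested, with a median of -0.13. Foxf2, a factor of brain pericytes and of some facial mesenchyme, was at 6.16, 4.597, 6.59 and 3.65 CPM in the outer ONL and at 0.0617, 0.0602, 0.0658 and 0.346 CPM in the olfactory nerve (5.19 ± 0.57, adjusted p = 5.8e-05), or 6.204 without olfactory nerve replicate 4. Tbx19 had 0 counts in the olfactory nerve and 0.989, 0.819, 1.25 and 1.95 CPM in the outer ONL, at least 6.35-fold higher. Tbx22, of the nasal septum and palate, measured 0.913, 1.64, 1.18 and 0.608 CPM against 3.95, 6.75, 17.5 and 5.54 CPM (-2.95 ± 0.51, adjusted p = 0.00138), or -2.32 without olfactory nerve replicate 3. Foxn4 had 0 counts in the outer ONL and was at least 7.37-fold higher in the olfactory nerve. Of 329 zinc finger genes named Zfp, 10 were higher and 12 lower, with a median of 0.04, and the block gave 21 of each, while the fits that left out 1 library gave as few as 6 higher, without outer ONL replicate 1 or olfactory nerve replicate 4, and 7 lower, without replicate 4 of either group. Zfp488, which acts with Olig factors in glia, measured 37.9, 31.5, 28.7 and 42.9 CPM against 4.38, 10.8, 6.12 and 5.02 CPM (2.42 ± 0.29, adjusted p = 1.0e-04). Zfp648 (2.22 ± 0.35, adjusted p = 7.0e-04) was higher, and Zfp57 (-1.52 ± 0.27, adjusted p = 0.0017) and Zfp711 (-1.44 ± 0.36, adjusted p = 0.0121) were lower.

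The other 2 regions cut at E16.5, the inner ONL (4 libraries) and the trigeminal nerve (3 libraries), were set beside these differences. Of the 1770 genes higher in the outer ONL, 907 had a still higher mean in the inner ONL, and of the 2153 lower genes 1404 had a mean in the inner ONL below both. In the trigeminal nerve 251 of the higher and 600 of the lower genes had a mean above both. The same counts were not made over all genes tested, so these are not read as a pattern of the called genes. With the 4 regions scaled together, the summed level of the glial list was 25268 ± 5326 CPM (SD) in the outer ONL, 23561 CPM in the inner ONL, 6445 CPM in the trigeminal nerve and 4369 ± 1259 CPM in the olfactory nerve. Fabp7 alone made up 17671, 16956, 78.4 and 1577 CPM of these sums, in the same order, so they are not read as amounts of glia. Cholesterol genes summed to 1157 CPM in the olfactory nerve, 2255 ± 293 CPM in the outer ONL and 3323 CPM in the inner ONL. The trigeminal nerve, at 2092 ± 301 CPM, was near the outer ONL, so the higher level was not particular to the nerve layer. Npy averaged 1584 ± 419 CPM in the inner ONL and 5.73 ± 2.15 CPM in the trigeminal nerve, and Zpld1 595 ± 87.9 CPM and 1.399 ± 0.981 CPM. Epithelial genes summed to 516 CPM in the olfactory nerve and to 13 to 33 CPM in the other 3 regions, and odorant receptor genes to 379 CPM against 19 to 28 CPM. Immature neuron genes summed to 4241 CPM in the olfactory nerve, 3850 CPM in the outer ONL and 2207 CPM in the trigeminal nerve and stood at 11017 CPM in the inner ONL. The study reports olfactory bulb tissue in its inner ONL pieces. Bulb and forebrain neuron genes summed to 760 CPM there, 111 CPM in the outer ONL and 193 CPM in the olfactory nerve. Inner ONL levels therefore cannot be assigned to the nerve layer alone. The bulb and forebrain list summed to 245 CPM in the trigeminal nerve, so it does not mark bulb tissue alone. These region levels are descriptions, and no test was run on them.

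**Figure D4:**
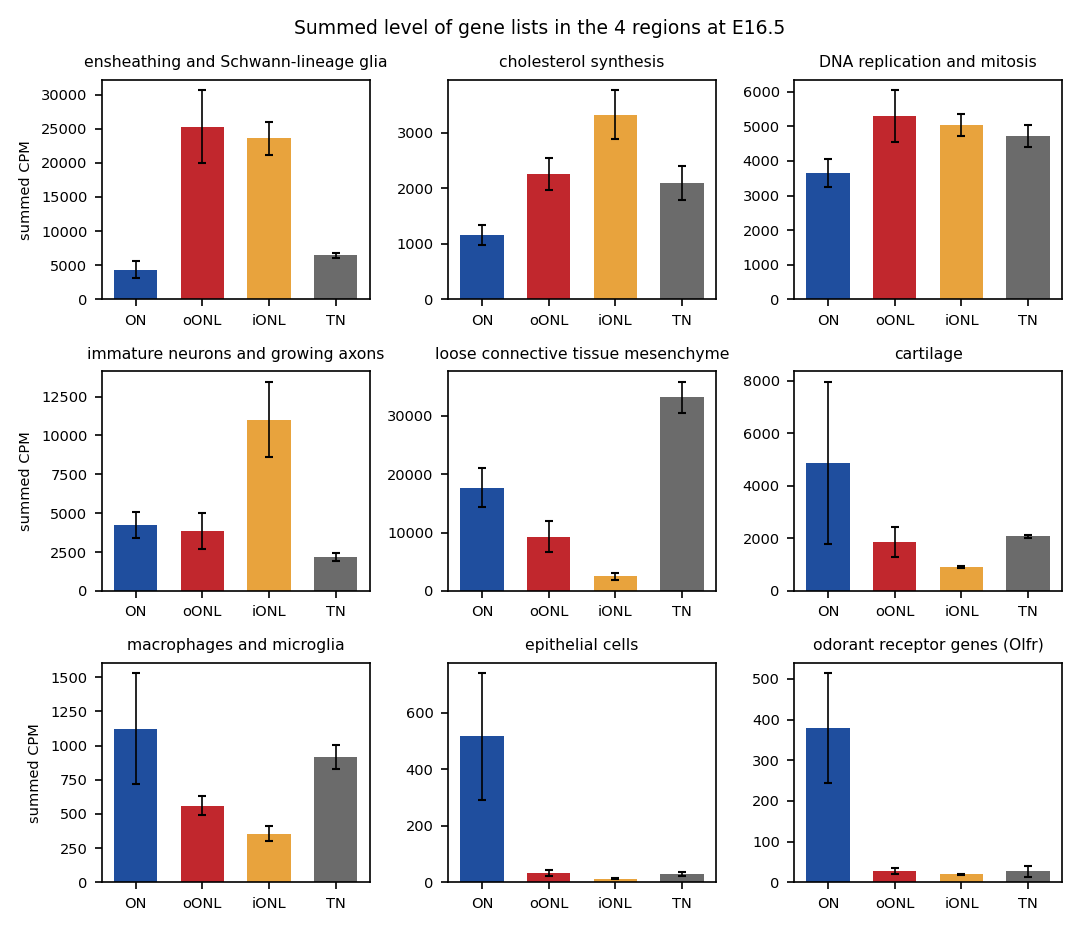
Summed CPM of the genes of 9 lists in olfactory nerve (ON), outer ONL (oONL), inner ONL (iONL) and trigeminal nerve (TN) at E16.5, as mean (bar) ± SD (line) over 4, 4, 4 and 3 libraries. The glial sum is 25268 CPM in the outer ONL against 4369 CPM in the olfactory nerve, of which Fabp7 alone gave 17671 and 1577 CPM. The cartilage sum (4871 and 1855 CPM) has its widest spread in the olfactory nerve.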

How the data were processed

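RNA from laser-microdissected pieces was amplified with a low-input, unstranded kit and sequenced in pairs, and the authors aligned reads to mm10 (GRCm38) with TopHat2 2.1.0 and counted them per gene with HTSeq. The deposited values are raw counts per gene (47729 genes, 31 libraries), with no strand setting given in the sources used here, so overlapping and antisense genes, like near-identical gene copies, cannot be told apart with certainty. Group and replicate number were taken from the sample titles. Each group was 4 pieces from 4 embryos, with the regions cut from the same cryosections, and which libraries share an embryo is not given in the sources used here.

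The 4 outer ONL and 4 olfactory nerve libraries at E16.5 were fitted with edgeR 4.0.16 in R 4.3.3 (filterByExpr by group, TMM scaling, quasi-likelihood test, Benjamini-Hochberg adjustment over all genes tested, called at adjusted p under 0.05). SE is the absolute log2 fold change divided by the square root of F. Levels relative to Sox10 were tested with limma 3.58.1 on log2(CPM + 0.5). The scripts were tested on simulated counts. Alternatives were DESeq2 1.42.0, RLE, upper-quartile and total count scaling, no filter or a mean of at least 5 CPM, all 15 libraries at E16.5, all 31 libraries, other pseudocounts and reference genes, a fit with replicate number as a blocking term, and fits that each lacked 1 library.

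Deviations from the group means of same-numbered libraries correlated at 0.222 to 0.481 over 11981 genes (other pairs of outer ONL and olfactory nerve libraries at -0.364 to 0.367). The ranges overlap, with outer ONL replicate 2 and olfactory nerve replicate 4 at 0.367, so this check does not settle which libraries pair. The main fit does not pair libraries, and the fit with the replicate block is an alternative to it. The block rests on the labels' numbers and this check, since no source says what a number marks.

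The comparison and the 43 gene lists were chosen with earlier results of these data known. A rule named 185 genes: the 12 largest differences each way at 20 CPM or more without overlap, up to 4 called members per list at 5 CPM or more, up to 4 called transcription factors each way per family, the 6 most abundant called genes each way, the 8 largest differences relative to Sox10, and Sox10, Npy, Omp, Xist and Ddx3y. Of these, 181 are described and the others are not reported here. Another 47 genes were added after their values were seen. The name pattern for homeobox genes was corrected after the files were read. Gene coordinates are GENCODE M21 (GRCm38), and promoter windows are RefSeq sequence of GRCm38.p6, 250 bases before each start.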

Additional observations from a re-analysis of the deposited data

Results flagged for a closer look

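For 36 of the 540 sets of 4 libraries looked at (6.67%), 1 library lay far from the other 3 of its group; the gap to its neighbour was most of the group's whole range. Chance gives about 1 in 20 if values are normally distributed, which was not tested, so single genes are values to look at and no more. For Neurog2, Cyp2g1, Sec14l3, Krt5, Olfr669 and Uncx the far library held at most 3 counts, which is not told apart from 0. Olfactory nerve replicate 1 lay above the other 3 for Neurog2 at 0.0617 CPM (others 0) and the summed level of red blood cells at 9954 CPM (others 2701 to 3664). Olfactory nerve replicate 2 lay above the other 3 for Slc13a3 at 8.62 CPM (others 0.658 to 1.04), Slc22a6 at 3.07 CPM (others 0 to 0.231), Hmgcs1 at 221 CPM (others 173 to 176) and Adgrb1 at 1.02 CPM (others 0.855 to 0.865). In the same library this held for Ptn at 2503 CPM (others 1293 to 1421), S100b at 144 CPM (others 76.0 to 83.97), Ngfr at 15.2 CPM (others 8.88 to 9.32) and Pgam1 at 401 CPM (others 303 to 318). Olfactory nerve replicate 2 lay below the other 3 for Actg1 at 1328 CPM (others 1579 to 1609). Olfactory nerve replicate 3 lay above the other 3 for the summed level of neural progenitors and astroglia of the brain at 1399.7 CPM (others 1148 to 1189). Olfactory nerve replicate 3 lay below the other 3 for Ddx3y at 0 CPM (others 71.5 to 84.8). Olfactory nerve replicate 4 lay above the other 3 for Rtp2 at 64.1 CPM (others 24.7 to 30.99), Nkx1-2 at 0.577 CPM (others 0 to 0.0658), Foxf2 at 0.346 CPM (others 0.0602 to 0.0658) and Foxj1 at 4.73 CPM (others 1.39 to 1.91). Outer ONL replicate 1 lay above the other 3 for Sult1c1 at 0.989 CPM (others 0), Ptn at 8604 CPM (others 5353 to 5649), Selenop at 5968 CPM (others 3176 to 3439.9) and Pgk1 at 229 CPM (others 154 to 163). Outer ONL replicate 1 lay below the other 3 for Acta2 at 2.36 CPM (others 71.3 to 79.7), Sparc at 2074 CPM (others 2659 to 2674) and Slc7a11 at 63.5 CPM (others 115 to 118). Outer ONL replicate 2 lay above the other 3 for Cyp2g1 at 0.189 CPM (others 0) and Sox2 at 1.45 CPM (others 0 to 0.208). Outer ONL replicate 3 lay above the other 3 for Ano2 at 1.53 CPM (others 0 to 0.122), Sec14l3 at 0.0693 CPM (others 0), Krt5 at 0.139 CPM (others 0) and Slc2a1 at 276 CPM (others 219 to 226). In the same library this held for Olfr669 at 0.208 CPM (others 0), Olfr231 at 0.832 CPM (others 0), Zic4 at 31.1 CPM (others 20.97 to 22.7) and Uncx at 0.208 CPM (others 0). In the same library this held for the summed level of chemokine genes at 769 CPM (others 463 to 513). Outer ONL replicate 4 lay above the other 3 for Col10a1 at 0.973 CPM (others 0.457 to 0.504).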

How the results depend on the processing

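The number of genes called between the regions was 3923 and stayed within 1.5 times that under every alternative run. It was 4420 in DESeq2 (1986 higher, 2434 lower), 5103 with the replicate block, 3105 in the fit of all 31 libraries and 3122 to 3936 with 1 library left out (3936 without olfactory nerve replicate 2). The share of calls that were higher was 45.1% with TMM, and total count scaling called 1353 higher and 2488 lower. The number higher relative to Sox10 was 78, against 118 with a pseudocount of 0.1 CPM, 49 with 2 CPM, 181 with the mean of 4 glial genes, Sox10 among them, as reference and 87 with the replicate block, and the cause was not tested. Of 2036 values of named genes with all 8 libraries kept, 1935 kept direction and call and 101 lost the call. With 1 library left out, 1688 of 1854 kept both, 164 lost the call, over 39 genes, and Ddx3y, at -0.20 in the fit of 8 libraries and never called, ran from -0.63 to 0.20, above 0 without outer ONL replicate 3 (0.20) or olfactory nerve replicate 1 (0.05). Among named genes the replicate block ended the calls of Olfr231, Tnnt3 and Ccl4 and no other call.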
